A study of Mus musculus with 12 samples.

Results

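The cytosolic ribosomal protein genes were compared between hearts with and without Cyb5r3 in cardiomyocytes. The members were chosen by symbol: protein-coding rows named Rpl or Rps followed by a number, together with Rplp0, Rplp1, Rplp2 and Rpsa, with pseudogenes and the Rps6k kinases left out. This gave 85 of the 53700 rows of the count table. Rps19bp1 met the wording but encodes a binding protein, so it was set apart and 84 genes remained. Of these, 83 passed the filter on low counts, among 17847 genes that did. The 84th, Rpl10l, a testis-type paralog of Rpl10, had 1 count over all libraries and was not tested. Rpl41 was not analysed here.

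Whole hearts came from 6 ac-WT and 6 ac-CYB5R3-KO male mice, 1 library for each heart. Both groups carried the tamoxifen-inducible Myh6-CreERT2 transgene, which drives the recombinase from a cardiomyocyte promoter, on a mixed background backcrossed toward C57BL/6J. The ac-WT mice had wild-type Cyb5r3 and the ac-CYB5R3-KO mice had both alleles floxed. All were treated at 10 to 13 weeks of age with tamoxifen at 33 mg/kg/d for 5 days, and hearts were taken 5 days later. Deletion was thus limited to cardiomyocytes, and the other cells of the heart kept the gene. In whole tissue, fewer cells of a type and less RNA per cell cannot be told apart.

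Ribosomal proteins are assembled with ribosomal RNA into a small and a large subunit, and the canonical set is made in nearly every cell. Their mRNAs typically begin with a terminal oligopyrimidine tract, through which mTOR signalling and the protein LARP1 adjust their translation together. A few subunits have paralogs with restricted expression, and Rpl3l, which can take the place of Rpl3, belongs to heart and skeletal muscle. Loss of single ribosomal proteins is known to cause Diamond-Blackfan anemia.

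The start-site sequences are shown because this tract is the best-known feature that the members share. RefSeq promoter entries (GRCm38.p6) were found for 62 of the 83 members, and each window ran from 15 bases before to 15 bases after an annotated start, on the sense strand only. A tract was counted where a C was followed by C or T letters only, for a run of at least 7 letters, and capitals mark that run. Rps6, the small-subunit protein phosphorylated by S6 kinase, lies at chr4:86857353-86857382 (minus strand), Rpl38, of the large subunit, at chr11:114668565-114668594 (plus strand), Rps27, of the small subunit, at chr3:90213634-90213663 (minus strand), and Rps10, also small subunit, at chr17:27635230-27635259 (minus strand). The muscle paralog Rpl3l, at chr17:24727811-24727840 (plus strand), and the paralog Rpl36al, at chr12:69184053-69184082 (minus strand), are shown as members whose windows held no run.
Rps6: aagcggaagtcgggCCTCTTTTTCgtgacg
Rpl38: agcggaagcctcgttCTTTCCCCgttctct
Rps27: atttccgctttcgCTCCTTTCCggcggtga
Rps10: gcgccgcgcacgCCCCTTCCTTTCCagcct
Rpl3l: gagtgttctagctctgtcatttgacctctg
Rpl36al: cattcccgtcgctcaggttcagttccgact
A run was found in 32 of the 62 matched members (51.6%), against 4389 of 26963 other genes (16.3%). The median log2 fold change, ac-CYB5R3-KO against ac-WT, was -0.26 in the 32 members with a run and -0.26 in the 30 without one.

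Library totals ran from 43393183 to 53754284 counts. The targeted gene Cyb5r3 had 126 ± 38.4 CPM (counts scaled to library size by TMM, edgeR's trimmed mean of M values) in the ac-WT group, against 53.7 ± 9.07 in ac-CYB5R3-KO hearts (SD, n = 6), with no overlap between the groups. Its log2 fold change was -1.22 with an SE of 0.19 (edgeR quasi-likelihood test, adjusted p = 0.0450, exact permutation p = 0.00216, the smallest that 6 hearts against 6 allow). The adjusted edgeR p was 0.315 with scaling by total counts, 0.1 with replicate number in the fit and 0.136 without ac-WT library 4. It was 0.00417 without ac-WT libraries 2 and 3. The adjusted p was 0.0561 with limma-voom and 1.36e-06 with DESeq2. All 12 cardiomyocyte markers passed the filter. The ac-WT libraries 2 and 3 stood apart, with TMM factors of 0.570 and 0.723 where the other 10 libraries had 0.988 to 1.22. Mitochondrial genes took 35.3% and 34.8% of counts in these 2 libraries and 24.0% to 30.1% in the others. Their summed cardiomyocyte markers were 59818 and 47140 CPM, above the 33536 CPM of the highest ac-CYB5R3-KO library, and their summed fibroblast markers were 1561 and 1755 CPM, below the 5084 CPM of the lowest one. Over the whole lists, 5 of 12 cardiomyocyte markers were lower at an unadjusted p under 0.05, with sums of 26426 to 59818 CPM in ac-WT and 19304 to 33536 CPM in ac-CYB5R3-KO libraries, and 6 of 8 tested red cell genes were higher, with sums of 425 to 8216 and 2540 to 24791 CPM. Of 7 tested cartilage and airway markers, 5 were higher, with sums of 5.52 to 52.7 and 70.9 to 150.4 CPM. Of 5 smooth muscle markers, 3 were lower and 1 was higher, with sums of 154 to 300.1 and 131 to 180 CPM. Of all genes tested, 9.73% were lower and 4.91% were higher at this limit. No marker of these lists had an edgeR adjusted p under 0.05. The part of these differences in the results below was not tested, and values without these 2 libraries are given beside the main results and beside the members with the largest differences.

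Nearly all ribosomal protein genes were slightly lower in ac-CYB5R3-KO hearts on the TMM scale. Of the 83 members, 81 had a log2 fold change below 0, where 51.2% of all genes tested did, and the median was -0.26, which corresponds to 83.4% of the ac-WT level. The quartiles of the members were -0.32 and -0.18, and the median of all genes was -0.01. At an unadjusted p under 0.05, 43 members were lower (51.8%), against 9.73% of all genes, and 8 were lower at a p under 0.01, against 3.27%. None was higher at either limit, while 4.91% of all genes were higher at a p under 0.05. With replicate number added to the fit, 16 members were lower at a p under 0.05, against 8.68% of all genes. At a p under 0.01 it was 1 member, against 2.45%. No member passed the edgeR test after Benjamini-Hochberg adjustment over all genes, the smallest adjusted p being 0.144, and 0.101% of all genes passed it. DESeq2 called 5 members at an adjusted p under 0.05, all lower, against 2.53% of all genes in either direction. These included Rpl3l, Rpl32, Rpl36 and Rps29, with DESeq2 adjusted p from 0.00113 for Rpl3l to 0.0442 for Rps29. At an unadjusted p under 0.01, DESeq2 had 26 members lower, against 4.91% of all genes.

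The medians of the large and the small subunit were close, and their difference was not tested. The 45 large-subunit genes had a median of -0.26, with 43 below 0 and 23 lower at an unadjusted p under 0.05, and the 31 small-subunit genes had a median of -0.27, with all 31 below 0 and 17 at that limit. The 10 genes whose human forms are mutated in Diamond-Blackfan anemia had a median of -0.29, and 6 of them were lower at that limit. All 7 tested paralogs had values below 0, and 3 were at that limit. The median SE of a member's log2 fold change was 0.12, so a shift of this size in a single gene was close to the limit of what the spread between hearts allowed.

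**Figure D1:**
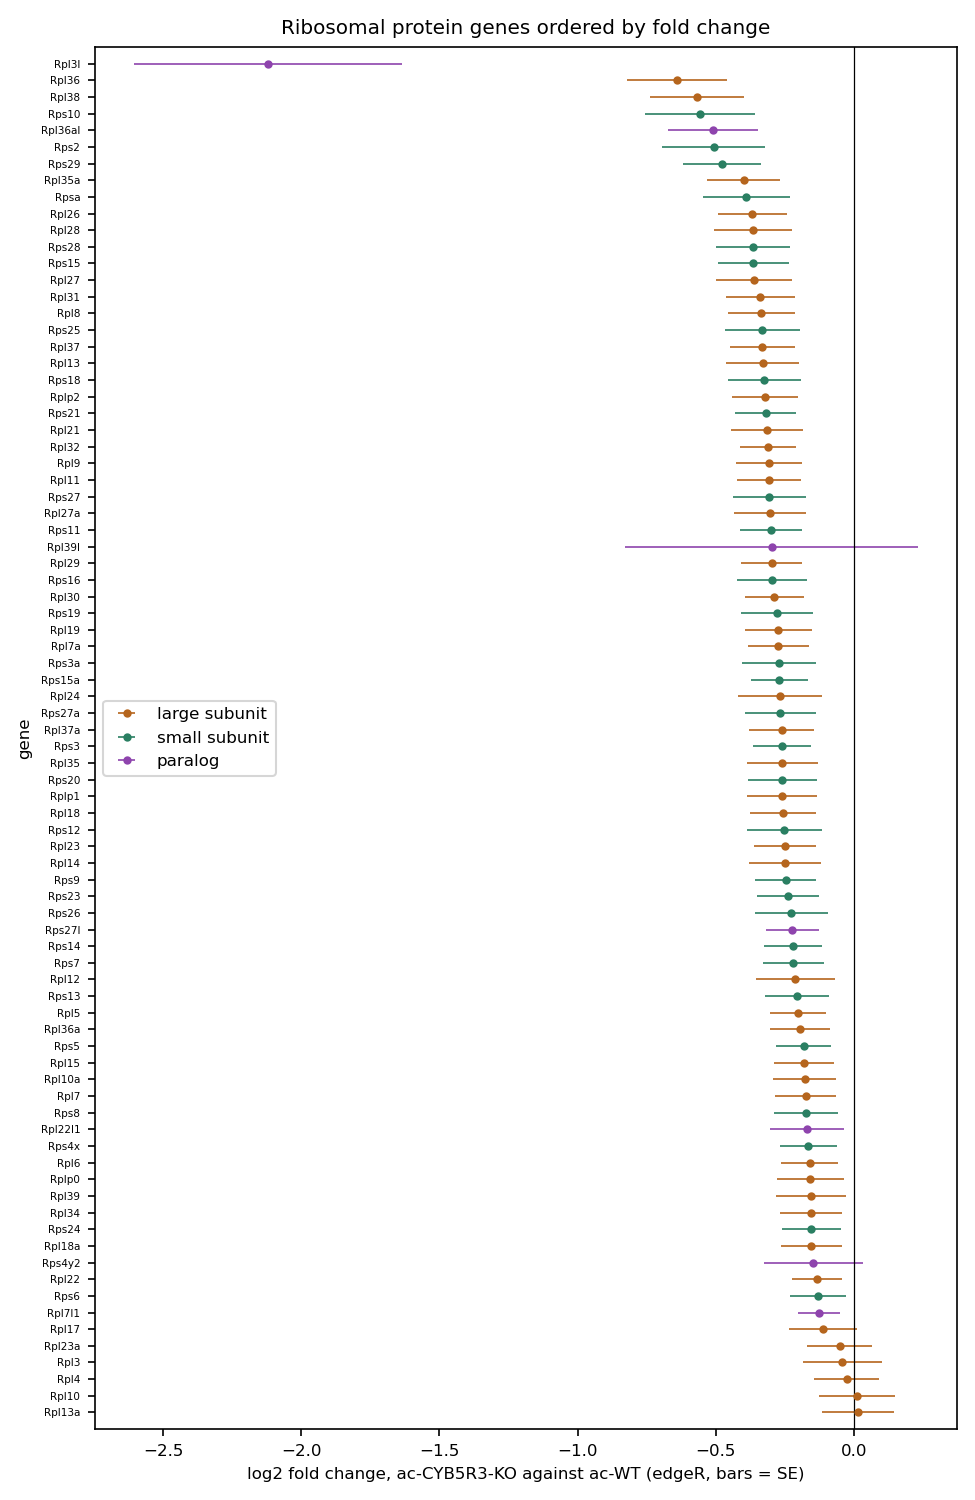
The log2 fold change of 82 of the 83 ribosomal protein genes (horizontal axis, ac-CYB5R3-KO against ac-WT, bars are the SE from edgeR), ordered by size and coloured by role. Rpl3l stands alone at -2.12, and the other 81 genes shown lie between -0.64 and 0.02.

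The sign of the members' median depended on how libraries were scaled, while it lay below the median of all genes on both scales. As a share of raw counts, the 83 genes took 1.76%, 1.56%, 1.55%, 2.47%, 2.64% and 2.60% in ac-WT libraries 1 to 6, and between 1.95% and 2.40% in the ac-CYB5R3-KO libraries. The ac-WT libraries thus lay on both sides of the ac-CYB5R3-KO libraries, 3 below all of them and 3 above. The group means were 2.10% ± 0.527 and 2.12% ± 0.179 (SD, n = 6). On the TMM scale, the summed level was 17836, 27450, 21436, 23737, 23475 and 23388 CPM in ac-WT libraries 1 to 6, and 17347 to 20774 CPM in the ac-CYB5R3-KO libraries. On this scale 5 ac-WT libraries were above every ac-CYB5R3-KO library and ac-WT library 1 was inside their range. The means were 22887 ± 3155 and 19068 ± 1222 CPM, so that ac-CYB5R3-KO hearts had 83.3% of the ac-WT level. Library 2 of ac-WT had nearly the lowest share of raw counts and the highest TMM level of all.

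**Figure D2:**
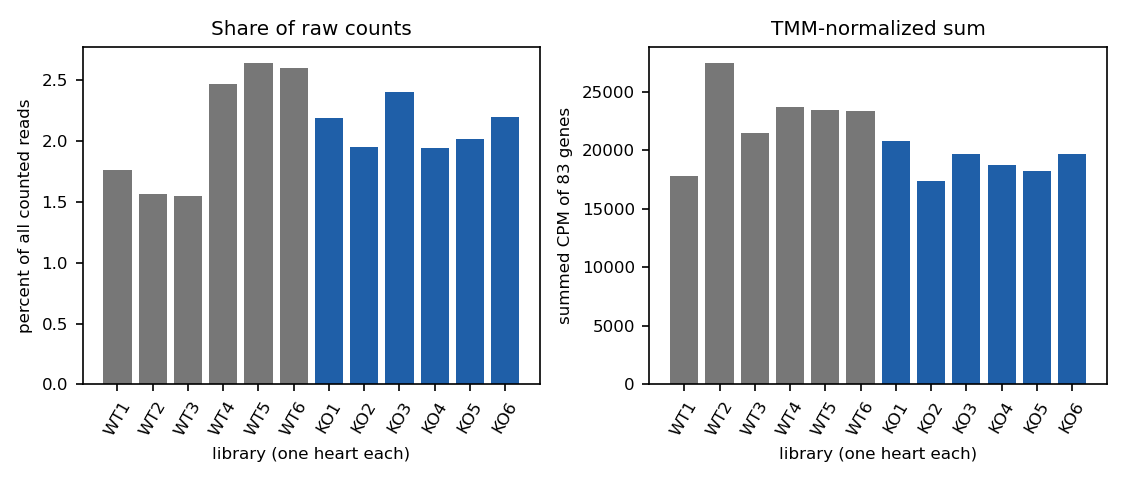
Summed level of the 83 ribosomal protein genes in each library, as percent of all counted reads (left) and as TMM-normalized CPM (right), with ac-WT in grey and ac-CYB5R3-KO in blue. On the left, ac-WT libraries 1 to 3 are the lowest of all, and on the right, only ac-WT library 1 falls among the ac-CYB5R3-KO libraries.

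When libraries were scaled by their total counts alone, the median of the members was 0.02 and that of all genes was 0.26. Relative to all genes the members were at -0.23 on this scale and at -0.25 with TMM. On total counts 36 of 83 members were below 0 and 1, Rpl3l, was lower at an unadjusted p under 0.05, against 2.06% of all genes, and also at a p under 0.01, against 0.79%. Without ac-WT libraries 2 and 3, the median was -0.20 and 81 members were below 0. These were not the same 81, as Rps4y2 (0.04) and Rpl39l (0.20) were now above 0. Then 19 members were lower at an unadjusted p under 0.05, against 4.54% of all genes, and 18 of them were among the 43 found with all libraries. At a p under 0.01, 2 members were lower, against 1.32% of all genes. These included Rpl3l, with a log2 fold change of -1.16. The ac-CYB5R3-KO hearts had 86.2% of the ac-WT summed TMM level without these libraries, and 89.5% of the ac-WT share of raw counts.

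**Figure D3:**
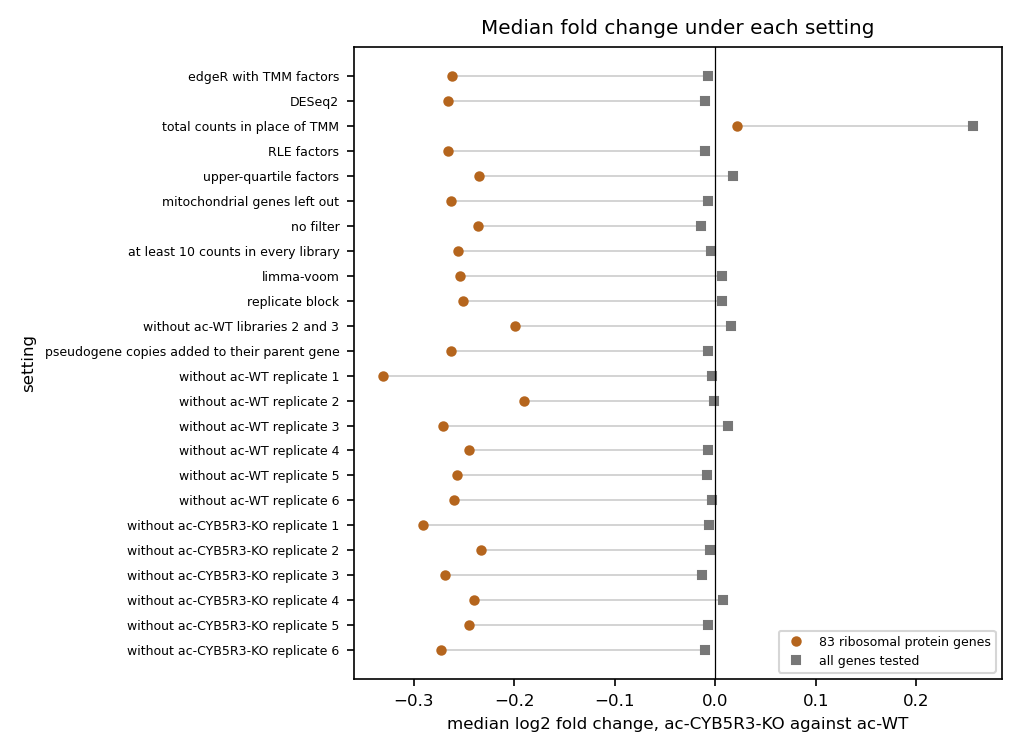
Median log2 fold change, ac-CYB5R3-KO against ac-WT, of the 83 ribosomal protein genes (brown circles) and of all genes tested (grey squares) under each setting. The members lie 0.19 to 0.33 below all genes in each setting shown, and total counts are the setting in which the members' median is above 0.

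The hearts of one group differed among themselves nearly in step across the members. Each gene's log2(CPM + 1) was set against its mean over the 12 libraries, and the median deviation of the 83 members was -0.20 in ac-WT library 1, 0.39 in library 2, 0.04 in library 3, and 0.20, 0.17 and 0.15 in libraries 4 to 6. In ac-CYB5R3-KO libraries 1 to 6 it was 0.00, -0.26, -0.08, -0.16, -0.18 and -0.09. Library 1 of ac-WT was thus the 2nd lowest of all. It was the lowest ac-WT library in 71 of the 83 members and below the highest ac-CYB5R3-KO library in 81. The highest of all 12 libraries was ac-WT library 2 in 63 members, and the lowest was ac-CYB5R3-KO library 2 in 43. No member had every ac-CYB5R3-KO library below every ac-WT library, where 1.04% of all genes did. Without ac-WT library 1, 62 members were lower at an unadjusted p under 0.05, against 10.9% of all genes, and 41 at a p under 0.01, against 4.65%. Without ac-WT library 2 these counts were 25, against 6.17%, and 4, against 2.06%. Without ac-CYB5R3-KO library 2 they were 22, against 8.38%, and 1, against 2.18%.

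**Figure D4:**
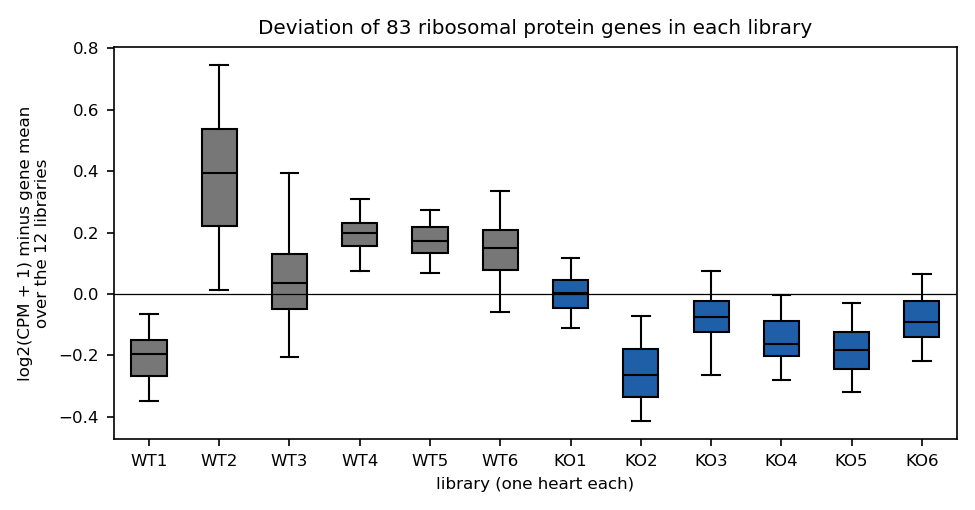
Deviation of the 83 ribosomal protein genes from each gene's mean over the 12 libraries, log2(CPM + 1), by library, with ac-WT in grey and ac-CYB5R3-KO in blue. Boxes span the quartiles, the line is the median and whiskers run from the 5th to the 95th percentile of genes, and ac-WT library 2 has the highest median, 0.39, and the widest box.

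The member with the largest difference was Rpl3l (ENSMUSG00000002500), the muscle paralog of the core large-subunit protein Rpl3. Its level was 44.3, 153, 73.7, 24.0, 33.1 and 17.8 CPM in ac-WT libraries 1 to 6, and in ac-CYB5R3-KO hearts the lowest, median and highest were 6.64, 13.0 and 20.0 CPM. Libraries 2 and 3 of ac-WT were the highest, and ac-WT library 6 was inside the range of the ac-CYB5R3-KO hearts. The log2 fold change was -2.12 with an SE of 0.48 (edgeR quasi-likelihood test, adjusted p = 0.144, exact permutation p = 0.00649). Without ac-WT libraries 2 and 3 the ac-WT mean moved from 57.7 to 29.8 CPM, against 13.2 CPM in ac-CYB5R3-KO hearts, and the log2 fold change to -1.16 (edgeR adjusted p = 0.344). Rpl3 itself had 234 ± 48.1 CPM in ac-WT and 227 ± 26.8 CPM in ac-CYB5R3-KO hearts (SD, n = 6), and its log2 fold change was -0.04 with an SE of 0.14.

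The ratio of a paralog to its partner within a library does not depend on the scaling of that library, and 7 pairs were compared. Reads of Rpl3l per 100 reads of Rpl3 were 22.96, 86.8, 33.5, 9.55, 13.2 and 5.74 in ac-WT libraries 1 to 6. In ac-CYB5R3-KO libraries they were 2.69, 8.64, 5.001, 6.10, 10.99 and 3.396. The ranges overlapped, with ac-WT libraries 4 and 6 below the highest ac-CYB5R3-KO library. The mean log2 ratio was -2.39 ± 1.40 in ac-WT and -4.19 ± 0.776 in ac-CYB5R3-KO hearts, a difference of -1.80 (two-sided exact permutation p = 0.0195, adjusted over the 7 pairs 0.0758). Without ac-WT libraries 2 and 3 the difference was -1.06 (exact permutation p = 0.0810).

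**Figure D5:**
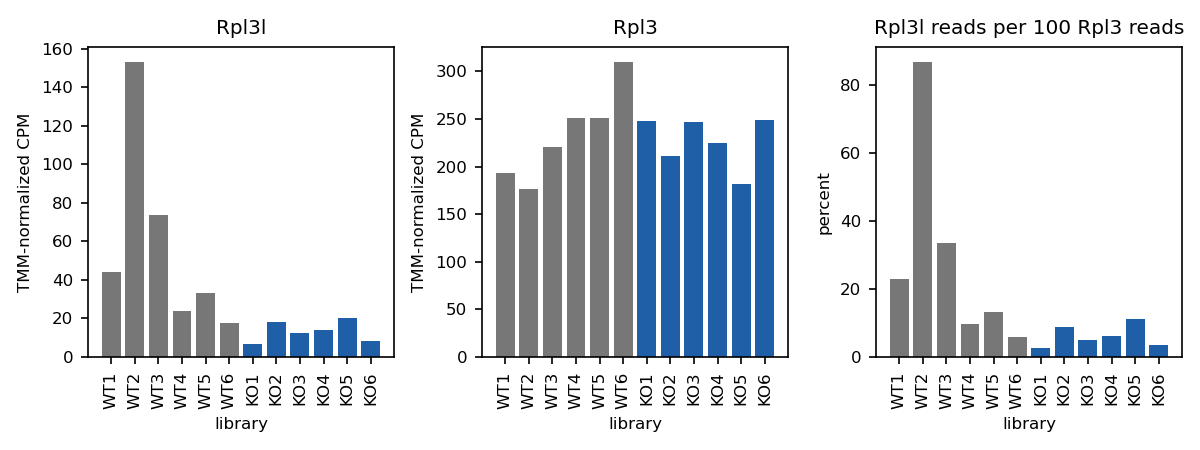
Rpl3l (left) and Rpl3 (middle) in TMM-normalized CPM, and reads of Rpl3l per 100 reads of Rpl3 (right), in each library, with ac-WT in grey and ac-CYB5R3-KO in blue. Libraries 2 and 3 of ac-WT have the highest Rpl3l, at 153 and 73.7 CPM, while Rpl3 lies between 177 and 310 CPM in all 12 libraries.

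The pair Rpl36al and Rpl36a, near-identical large-subunit proteins, had the other low p. Reads of Rpl36al per 100 of Rpl36a had a median of 5.33 in ac-WT (4.54 to 7.58) and 4.46 in ac-CYB5R3-KO hearts (3.97 to 5.20), so the ranges overlapped. The difference of the log2 ratio was -0.31 (exact permutation p = 0.0216, adjusted 0.0758), and -0.17 without ac-WT libraries 2 and 3 (exact permutation p = 0.1). Neither pair passed the adjustment. How reads that match both genes of a pair were counted was not given in the sources used here, so these ratios are uncertain for pairs of near-identical sequence. The remaining 5 pairs (Rps27l and Rps27, Rpl22l1 and Rpl22, Rpl39l and Rpl39, Rpl7l1 and Rpl7, and Rps4y2 and Rps4x) differed by -0.18 to 0.07, with exact permutation p from 0.474 to 0.853. The name Rps4y2 is that of the gene table for the gene also called Rps4l.

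After Rpl3l the largest differences belonged to Rpl36, Rpl38, Rps10 and Rpl36al. Rpl36, of the large subunit, had a lowest, median and highest level of 209, 270 and 491 CPM in ac-WT and 168, 193 and 235 CPM in ac-CYB5R3-KO hearts. Library 1 of ac-WT was inside the range of the ac-CYB5R3-KO hearts and ac-WT library 2 was the highest. The log2 fold change was -0.64 with an SE of 0.18 (edgeR adjusted p = 0.184, exact permutation p = 0.00649), and -0.35 without ac-WT libraries 2 and 3. Rpl38, which in mice is needed for the translation of a group of Hox mRNAs, had 175, 257 and 362 CPM in ac-WT and 142, 168 and 219 CPM in ac-CYB5R3-KO hearts. Its groups overlapped through ac-WT library 1, and its log2 fold change was -0.57 with an SE of 0.17 (exact permutation p = 0.0108), and -0.36 without ac-WT libraries 2 and 3. Rps10 had 4.74 ± 1.68 and 3.21 ± 0.433 CPM (SD, n = 6) in the same order of groups, and its log2 fold change was -0.56. That value was -0.26 without ac-WT libraries 2 and 3, -0.35 without ac-WT library 2 alone and -0.35 with its pseudogene copy added. Rpl36al had 7.24 ± 1.70 and 5.07 ± 0.871 CPM, a log2 fold change of -0.51, and of -0.28 without ac-WT libraries 2 and 3.

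The other members with defined roles had log2 fold changes from -0.39 to -0.13. The stalk proteins bind translation factors on the large subunit, and their log2 fold changes were -0.16 for Rplp0, -0.26 for Rplp1 and -0.32 for Rplp2, and -0.20, -0.17 and -0.21 in that order without ac-WT libraries 2 and 3. Rpl5 and Rpl11, which join 5S RNA and can bind Mdm2, had -0.20 and -0.31. Rpsa, the small-subunit protein also known as the laminin receptor, had -0.39, with a lowest, median and highest level of 447, 705 and 951 CPM in ac-WT and 482, 526 and 613 CPM in ac-CYB5R3-KO hearts, the ac-WT range enclosing the other. Rps6 had -0.13, with 272, 334 and 356 CPM against 277, 292 and 310 CPM. The only members above 0 were Rpl10, at 0.01, and Rpl13a, at 0.02, both of the large subunit.

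Levels between genes were compared as CPM per kilobase of exon. The highest were Rplp1, at 1079, Rps12, at 720, and Rps27, at 702 CPM per kilobase. The lowest of the 83 were Rps10, at 2.05, Rpl24, at 0.907, and Rpl39l, a testis-enriched paralog of Rpl39, at 0.335 CPM per kilobase. Rps10 and Rpl24 encode canonical subunits that each ribosome carries, so their levels and fold changes are uncertain: how the counting treated overlapping genes and reads that match several places was not given in the sources used here. The same holds for members with processed copies. The table held 140 rows named as pseudogene copies of 50 members, with 3426164 counts, against 12133569 counts in all 84 members, a ratio of 28.2%. The share was highest for Rps10, where 1 copy held 1396% of the parent's counts, followed by Rpl23a at 321%, Rpl30 at 207% and Rpl35a at 198%. Of 100 copies that passed the filter, 95 had a log2 fold change below 0, against 51.2% of all genes, and their median was -0.31. At an unadjusted p under 0.05, 49 were lower, against 9.73% of all genes. Some copies of the same parent had nearly equal values. Rpl35a-ps3 and Rpl35a-ps4 had 129 and 128 CPM in ac-WT library 1, and 242 and 241 CPM in ac-WT library 2. Copies may thus hold the same reads as each other and their parents, and are not read as further genes that were lower. With copies added to their parents, the median of the 83 members was -0.26 and 42 were lower at that limit, against 9.58% of all genes. Where copies share reads, this sum may count a read more than once.

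Short genes outside the family had lower values as well. Other protein-coding genes with up to 750 bases of exon had a median of -0.24 (377 genes), those of 750 to 1500 bases -0.07 (1246 genes), and those of 1500 to 3000 bases 0.01 (3654 genes). In the same classes the members had medians of -0.30 (14 genes), -0.26 (29 genes) and -0.23 (28 genes), and the 12 members above 3000 bases had -0.27, where 8487 other genes had 0.01. In the shortest class, 32.4% of the other genes were lower at an unadjusted p under 0.05. The part of gene length in the members' shift was not tested.

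Related genes outside the symbol rule were read from lists. Of the other ribosomal subunits, Fau, fused to a ubiquitin-like protein, had 229 ± 28.0 and 205 ± 12.5 CPM (ac-WT first, SD, n = 6), and Gnb2l1 (Rack1), a scaffold on the small subunit, had 356 ± 47.3 and 308 ± 12.7 CPM. Neither gene was at an unadjusted p under 0.05. Of 21 tested genes of translation factors and host RNAs with a terminal tract, 11 were below 0, where 51.2% of all genes were, and the median was -0.00. Among them Eef1d, a subunit of the elongation factor that loads aminoacyl-tRNA, had -0.37 (edgeR unadjusted p = 0.0143), and -0.23 without ac-WT library 2, and Gas5, a host gene of small nucleolar RNAs, had 0.31 (unadjusted p = 0.00525). The 44 ribosome biogenesis genes had a median of -0.00, with 22 below 0, where 51.2% of all genes were. At that limit 2 were higher, Rrp12 at 0.35 and Ltv1 at 0.25, where 4.91% of all genes were higher. The 22 regulators around mTOR and Myc had a median of -0.05, and none was at that limit. No gene of these 4 lists passed the adjusted edgeR test. DESeq2 gave Gas5 a log2 fold change of 0.31 at an adjusted p of 0.0307.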

How the data were processed

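Whole-heart RNA (TruSeq Stranded Total RNA, unpaired reads) was measured in 6 ac-WT and 6 ac-CYB5R3-KO mice, grouped by their labels. The authors deposited raw read counts per Ensembl gene, neither normalized nor filtered. The submitters' processing notes list STAR, featureCounts and GRCm39, whereas the study's methods name mm9 and Cufflinks, so the build of the counts was not settled. All 12 columns were used. Symbols were found for 31027 identifiers (57.8%).

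The members and lists were chosen with earlier results of these data known. Genes were filtered with filterByExpr (minimum count 10), scaled by TMM and tested with edgeR 4.0.16 (quasi-likelihood test, two-sided, Benjamini-Hochberg over 17847 genes, R 4.3.3). The study used Cuffdiff, which needs reads. The scripts were tested on simulated data. DESeq2 1.42.0, limma-voom (limma 3.58.1), other scaling factors and filters, a replicate block and leaving out libraries were tried as alternatives. Single genes and paralog ratios, log2 of (count + 1) over (count + 1), were tested by exact permutation over 924 placements. Exon lengths came from the GENCODE annotation of NCBIM37. Named were Cyb5r3, members with an adjusted p under 0.05, the 5 largest falls and rises at an unadjusted p under 0.05, paralog pairs, stalk, 5S, Rps6 and Rpsa, the 3 highest and 3 lowest levels, and the 2 smallest p of each list. Members outside this rule were named after their values were seen. For members with high counts, the spread between hearts rather than counting error limited precision. The common biological coefficient of variation over all genes tested was 26.5%. Rpl39l had 4 to 27 counts per library, so counting error also limited its precision. Values of some single genes are not reported here.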

Additional observations from a re-analysis of the deposited data

Results flagged for a closer look

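In 6 of 90 checks of a group of 6 hearts, the highest or lowest heart lay far from the nearest other one, where chance flags about 1 in 20. Library 2 of ac-WT was the highest for the ratio of Rpl3l to Rpl3, at 86.8%, for the ratio of Rpl39l to Rpl39, at 0.284%, for Rpl39l, at 0.804 CPM, and for Eef1d, at 190 CPM. Library 1 of ac-WT was the lowest for Rps27l, at 50.2 CPM. Library 3 of ac-WT was the highest for Max, a partner of Myc, at 40.6 CPM. No ac-CYB5R3-KO heart stood apart in these checks.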

How the results depend on the processing

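With total counts in place of TMM, the median log2 fold change of the members was 0.021, 36 were below 0, 1 was lower at an unadjusted p under 0.05 and 1 at a p under 0.01. The summed level differed by 1.02%, and by -2.22% with mitochondrial genes left out of the total. Single genes were followed across settings only where the naming rule above named them, and other members changed sign on total counts too. Among the named genes, the log2 fold changes that reversed on total counts were 0.077 for Rpl7, 0.098 for Rpl39, 0.080 for Rps4x, 0.085 for Rpl36a, 0.063 for Rpl22l1, 0.13 for Rps6, 0.13 for Rpl22, 0.057 for Rpl5, 0.081 for Rplp0, 0.18 for Rps4y2, 0.023 for Rplp1, 0.044 for Rps27l, 0.18 for Rpl3, 0.077 for Rpl39l, 0.14 for Rpl7l1, 0.11 for Fau, 0.041 for Gnb2l1, 0.093 for Max, 0.029 for Rps12 and 0.032 for Rpl24. All genes moved by 0.26 on that scale. Without ac-WT libraries 2 and 3, 19 members were lower at a p under 0.05 and 2 at a p under 0.01. The ratio difference was -1.06 for Rpl3l and -0.17 for Rpl36al, with exact permutation p no longer under 0.05. Among the named genes and ratios, values reversed for Rps4y2 (0.038), Rpl39l (0.20) and the ratio of Rpl39l (0.20). DESeq2 gave 26 members lower at a p under 0.01 and 5 at an adjusted p under 0.05. The cause was not tested.

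Leaving out 1 library at a time gave 22 to 62 members lower at a p under 0.05 (6.17% to 11.6% of all genes) and 1 to 41 at a p under 0.01 (1.59% to 4.65% of all genes). The first count was 25 without ac-WT library 2 and 24 without ac-CYB5R3-KO library 4, and the second was 3 without ac-WT library 3, 4 without ac-WT library 4, and 2, 4 and 5 without ac-CYB5R3-KO libraries 3, 5 and 6. Members below 0 ranged from 79 to 83, the median from -0.33 to -0.19 and the summed difference from -20.2% to -13.2%. Among the named genes, ranges crossed 0 for Rpl3 (-0.099 to 0.057), Rpl39l (-0.66 to 0.18) and Rps4y2 (-0.26 to 0.033). Ranges also crossed 0 for the ratios of Rpl22l1 (-0.082 to 0.055), Rpl39l (-0.45 to 0.12) and Rps4y2 (-0.12 to 0.22). Cyb5r3 had an adjusted p of 0.0305 to 0.136 in these fits, 0.315 on total counts and 0.0561 with limma-voom.

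Replicate numbers are shared between the groups, and whether they pair the hearts was not settled. Deviations of same-numbered hearts correlated over 0.1 in 4 of 6 pairs, with a mean of 0.14 and a range of -0.08 to 0.35. The mean over other pairs was -0.03. So few pairs cannot decide the question, and the main fit took the hearts as unpaired. With a replicate block, 16 members were lower at a p under 0.05, against 8.68% of all genes, and 1 at a p under 0.01, and Cyb5r3 had an adjusted p of 0.1. The other settings kept the members' median and counts within 1.5 times of the values given.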
